A study of Mus musculus with 6 samples.

Results

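The 36 mitosis and spindle genes described here encode proteins that take a cell through the division of its chromosomes. They were chosen by name, as the rows of the deposited matrices whose symbol is on a list of 36, and all 36 were found among the 31053 genes measured. The list was drawn up with earlier results of these data known, but no threshold on a measured value chose its members. It holds 5 cyclins and partners of the mitotic kinase, 6 kinases and checkpoint genes, 7 centromere and kinetochore genes, 8 spindle and motor genes, 5 genes of the central spindle and cytokinesis, 3 partners of the anaphase-promoting complex, and 2 genes of chromosome structure and proliferation.

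The study sequenced the RNA of single cells from tumours of Yumm5.2, a mouse melanoma cell line, in 6 libraries. All lines carried a short hairpin RNA against Cdkn2a, which encodes inhibitors of the cell cycle, in a pLKO.1 vector. The control line (shCdkn2a_shControl) added a control hairpin, and 2 further lines (shCdkn2a_shSlc39a9 #1 and #2, called hairpin 1 and hairpin 2 below) added 1 of 2 hairpins against Slc39a9, a zinc transporter gene. Each line gave 1 library from mice given IgG and 1 from mice given anti-PD1, an antibody that blocks an inhibitory receptor of T cells. Lines were selected for 3 days and 350000 cells were placed at the right flank of C57BL/6 mice, with 200 µg of antibody injected into the peritoneum on 3 occasions each week until tumours had a volume of 0.5 cm3. This gives 4 groups, with n = 1 for the control line under each antibody and n = 2 for the knockdown lines under each. The control is a single line, each hairpin is a single line, the number of tumours in a library is not in the labels, and every comparison of genotype is also a comparison of lines.

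Entry into mitosis is driven by the kinase Cdk1 with A-type and B-type cyclins, after which Aurora and Polo-like kinases build the spindle, kinetochores tie chromosomes to it, and a checkpoint holds back the anaphase-promoting complex until all chromosomes are attached. Transcripts of these genes accumulate in G2 and M phase and are low in resting cells, so in tumours they mark cells that are dividing. Their promoters are known for CCAAT boxes, bound by NF-Y, and for the cell cycle genes homology region, a TTTGAA-like element through which the MuvB core acts with B-MYB and FOXM1 in dividing cells and as the DREAM repressor in resting cells.

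The stretches below are the 120 bases before the annotated start of 8 of the genes, from RefSeq (GRCm38.p6, the assembly that mm10 names), written along the strand of the gene. They are shown because each gene was higher in every knockdown library than in both control libraries in tumour cells. They also show how the known elements are placed. Capitals mark TTTGAA or TTCGAA and CCAAT, each on either strand (TTCAAA and ATTGG are the reverse complements).
Cdk1, chr10:69352913-69353032 (minus strand): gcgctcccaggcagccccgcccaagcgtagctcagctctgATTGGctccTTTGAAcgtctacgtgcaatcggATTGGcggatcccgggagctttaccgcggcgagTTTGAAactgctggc
Ccnb2, chr9:70421555-70421674 (minus strand): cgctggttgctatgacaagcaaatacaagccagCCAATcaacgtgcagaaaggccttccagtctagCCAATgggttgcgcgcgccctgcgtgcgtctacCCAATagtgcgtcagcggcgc
Cenpe, chr3:135212443-135212562 (plus strand): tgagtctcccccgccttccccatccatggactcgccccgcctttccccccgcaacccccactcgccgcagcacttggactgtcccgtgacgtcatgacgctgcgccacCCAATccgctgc
Anln, chr9:22389207-22389326 (minus strand): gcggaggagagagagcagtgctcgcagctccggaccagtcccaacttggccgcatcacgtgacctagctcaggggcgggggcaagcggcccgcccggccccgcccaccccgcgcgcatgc
Cdc20, chr4:118437344-118437463 (minus strand): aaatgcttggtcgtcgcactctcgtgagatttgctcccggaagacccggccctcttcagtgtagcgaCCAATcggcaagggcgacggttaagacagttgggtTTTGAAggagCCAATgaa
Ube2c, chr2:164769809-164769928 (plus strand): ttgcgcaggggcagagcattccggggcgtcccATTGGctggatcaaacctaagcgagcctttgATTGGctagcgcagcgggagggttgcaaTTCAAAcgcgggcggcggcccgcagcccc
Top2a, chr11:99024190-99024309 (minus strand): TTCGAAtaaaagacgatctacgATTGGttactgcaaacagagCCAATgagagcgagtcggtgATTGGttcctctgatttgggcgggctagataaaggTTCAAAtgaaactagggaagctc
Mki67, chr7:135716380-135716499 (minus strand): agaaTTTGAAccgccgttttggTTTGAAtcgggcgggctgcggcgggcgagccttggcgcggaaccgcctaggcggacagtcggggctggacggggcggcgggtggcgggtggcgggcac

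Of the 36 genes, 32 had a promoter in the RefSeq table, and Ccna2, Aurkb, Tpx2 and Kif20a did not. Where a gene had more than 1 promoter there, only the first listed was counted. TTTGAA or TTCGAA, on either strand, was found within 250 bases upstream of the start in 11 of the 32 (34.4%) and in 17.4% of all 27025 genes in the table. Within 100 bases the counts were 7 of 32 (21.9%) and 6.29% of all genes. A second promoter of Prc1, not counted, holds a TTTGAA match within 100 bases. CCAAT, on either strand, was found in 24 of 32 (75%) against 34.5%, at 2 or more places in 18 (56.3%) against 10.5%, and together with a TTTGAA or TTCGAA match in 10 (31.3%) against 6.21%. In the stretches shown, Cdk1, Cdc20, Top2a and Ube2c carry both kinds of match. Ccnb2 carries 3 CCAAT matches (its TTTGAA match lies upstream of the stretch), Cenpe carries CCAAT alone, Mki67 carries TTTGAA alone and Anln carries neither. These matches describe the letters in the window and no binding was measured.

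The matrices held 43929 cell barcodes, and 43260 cells were kept after cells with under 300 detected genes or over 20% mitochondrial counts and 583 predicted doublets were left out. Libraries held 58859821 to 83204249 UMIs (unique molecular identifiers, each counted as 1 RNA molecule). Between libraries, 63.2% to 89.5% of the barcodes of the smaller library also occurred in the other, over 15 pairs. A shared barcode fell in the same cell class in 57.1% to 65.0% of cases, against 57.4% to 64.6% for the next barcode in order of depth. Over the 3859 to 6923 barcodes that a pair of libraries shared, the log UMI totals had Pearson correlations of 0.941 to 0.984, given as a description. Whether reads passed between libraries was not tested. Tumour cells (23373, median 10369 to 14952 UMIs per library) were those with at most 1 Tyrobp UMI, no Ptprc UMI, at least 5 UMIs of Spp1, Grem1 and Cdkn2a together and at least 3000 UMIs in all. In them Slc39a9 stood at 22.8 and 20.8 CPM (UMIs scaled to the same total in every library and class) in the control libraries with IgG and anti-PD1, 7.96 and 8.39 in hairpin 1, and 12.0 and 11.1 in hairpin 2, while macrophages held 21.2 to 25.2. Of the melanocyte markers, Pax3 (55.0 to 84.6 CPM) and Mitf (14.2 to 20.8 CPM) were present in the tumour cells, Sox10, Mlana and Dct were at or under 0.04 CPM, and Pdgfra stood at 162 to 217 CPM, so these cells are called by their gate.

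The first question was how the level of the 36 genes in tumour cells varied with the Slc39a9 hairpins. Summed over the 36 genes, the level was 1547 CPM in control with IgG, 1513 in control with anti-PD1, 2306 and 2967 in hairpin 1 with IgG and anti-PD1, and 2471 and 2143 in hairpin 2. For each of the 36 genes, all 4 knockdown libraries lay above both control libraries, a pattern shown by 32.3% of the 12248 genes that averaged 1 CPM or more. In such sums, more dividing cells and more RNA per cell cannot be told apart, and shares of cells are given further on.

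**Figure D1:**
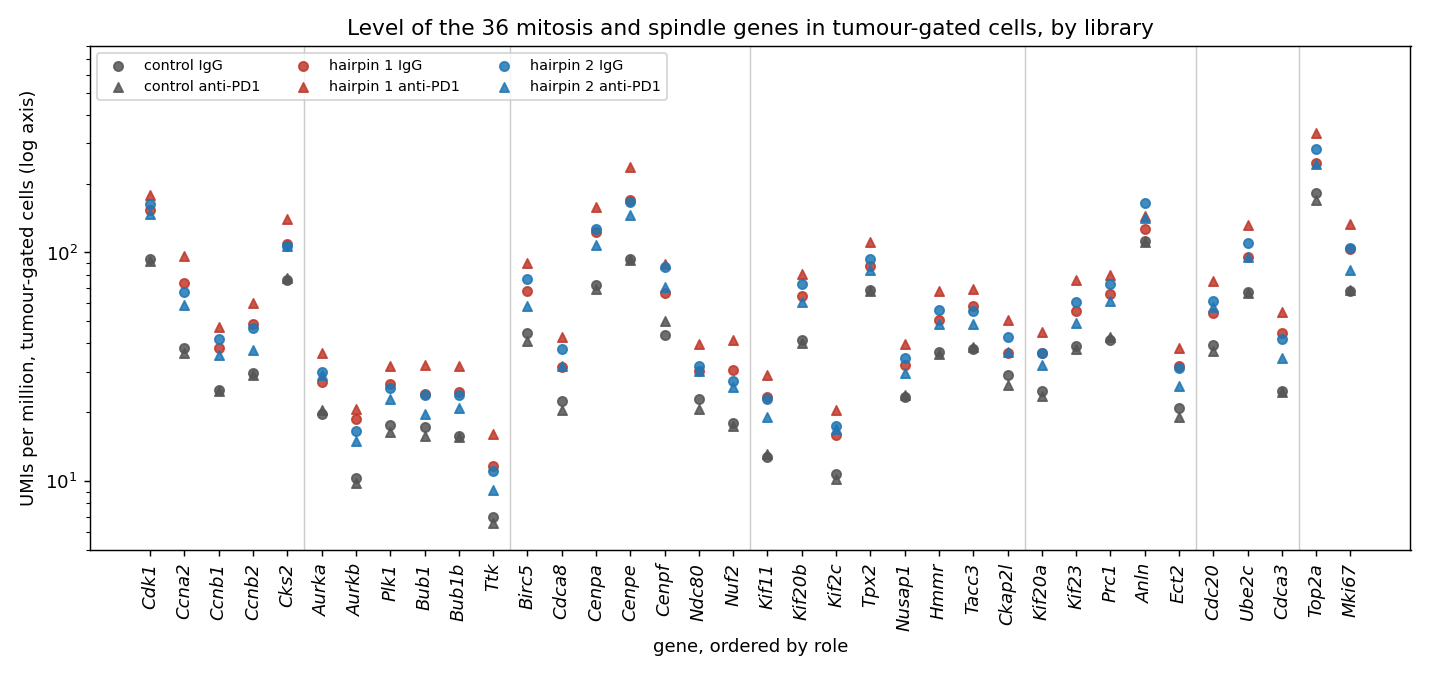
Level of each of the 36 genes in tumour cells (vertical, CPM on a log axis) by library, with genes ordered by role, grey lines between roles, and colour for the line and shape for the antibody. The grey control points lie below all 4 knockdown points for every gene, and hairpin 1 with anti-PD1 is highest for all genes except Anln.

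Among the cyclins and their partners, Cdk1, the kinase that drives entry into mitosis, stood at 93.6 and 91.9 CPM in the control libraries (IgG, then anti-PD1), 153.6 and 179.2 in hairpin 1, and 163.2 and 147.1 in hairpin 2. Both hairpin lines were above the control line and overlapped each other. Ccna2, the A-type cyclin of S phase and early mitosis, stood at 38.4 and 36.4 CPM in the control line, 73.8 and 96.1 with hairpin 1 and 67.2 and 58.8 with hairpin 2, so that the 3 lines did not overlap. Against the control line, Cdk1 rose by 0.75 ± 0.08 (log2, SE) with hairpin 1 and 0.68 ± 0.08 with hairpin 2 (adjusted p = 5.76e-04 and 0.0046, edgeR's quasi-likelihood test with Benjamini-Hochberg adjustment, as for every adjusted p below). Ccna2 rose by 1.09 ± 0.12 in hairpin 1 (adjusted p = 5.76e-04) and 0.69 ± 0.12 in hairpin 2 (adjusted p = 0.0128), both by edgeR. These fits have 2 libraries per line, with IgG and anti-PD1, so the p-values rest on how far the 2 libraries of a line lie apart and say nothing of the spread among lines. All 5 genes of this role, which also holds the B-type cyclins Ccnb1 and Ccnb2 and the Cdk-binding protein Cks2, rose in both hairpin lines. As a background for each role, the hairpin 1 fit called 21.7% of genes higher and 21.7% lower at an adjusted p under 0.05 (edgeR). For hairpin 2 the shares were 8.42% and 8.17%.

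Of the kinases and checkpoint genes, Aurka, the Aurora kinase of the centrosome and spindle pole, stood at 19.7 and 20.4 CPM in the control line, 27.2 and 36.2 with hairpin 1 and 29.9 and 29.2 with hairpin 2. The control libraries were lowest, and hairpin 2 lay inside the range of hairpin 1. Aurka rose by 0.56 ± 0.11 with hairpin 1 and 0.50 ± 0.10 with hairpin 2 (adjusted p = 0.00482 and 0.0214, edgeR). Ttk, the checkpoint kinase also called Mps1, stood at 6.96 and 6.56 CPM in the control line, 11.7 and 16.1 with hairpin 1 and 11.1 and 9.17 with hairpin 2. It rose by 0.94 ± 0.17 in hairpin 1 (adjusted p = 0.00395, edgeR), and its value in hairpin 2 was 0.52 ± 0.17 (adjusted p = 0.0765, edgeR). All 6 genes of the role rose in hairpin 1 and 4 of 6 in hairpin 2, where Ttk and the checkpoint kinase Bub1 (0.33 ± 0.15, adjusted p = 0.171, edgeR) did not pass.

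All 7 centromere and kinetochore genes rose in both hairpin lines, with a median log2 value of 0.79 in hairpin 1 and 0.64 in hairpin 2. Cenpe, the kinesin that carries chromosomes to the spindle equator, stood at 93.9 and 92.9 CPM in the control line, 169 and 237 with hairpin 1 and 167 and 145 with hairpin 2. Its rise was 1.02 ± 0.14 with hairpin 1 and 0.68 ± 0.14 with hairpin 2 (adjusted p = 0.00126 and 0.0197, edgeR). Cenpf, a large outer kinetochore protein, was the member with the largest rise in hairpin 2, with 43.5 and 50.3 CPM in control against 86.8 and 70.8 (0.70 ± 0.14, adjusted p = 0.0203, edgeR). Both of its hairpin 2 libraries lay above both controls, as did its hairpin 1 libraries at 66.7 and 89.1 CPM.

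Of the 8 spindle and motor genes, all 8 rose in hairpin 1 and 5 in hairpin 2. Tpx2, which activates Aurora A on the spindle, stood at 68.7 and 67.9 CPM in the control line, 87.6 and 111 with hairpin 1 and 93.5 and 83.9 with hairpin 2. The hairpin lines lay above control and overlapped each other, with a rise of 0.44 ± 0.11 in hairpin 1 (adjusted p = 0.0124, edgeR) and a value of 0.32 ± 0.10 in hairpin 2 (adjusted p = 0.0798, edgeR). Kif11, the motor that pushes spindle poles apart, had the largest value of the role in hairpin 1, at 12.8 and 13.1 CPM in control and 23.3 and 29.0 in hairpin 1 (0.92 ± 0.13, adjusted p = 0.00132, edgeR). The 3 that did not pass in hairpin 2 were Tpx2, the microtubule-associated Nusap1 (0.39 ± 0.11, adjusted p = 0.0515, edgeR) and the spindle protein Ckap2l (0.46 ± 0.15, adjusted p = 0.0792, edgeR). Tacc3, which ties microtubules together at the spindle, had the smallest rise that passed there (0.39 ± 0.09, adjusted p = 0.034, edgeR), at 37.8 and 38.7 CPM in control and 55.6 and 48.5 in hairpin 2.

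Anln, the anillin of the cleavage furrow, had a higher value in hairpin 2 than in hairpin 1, as did Cenpf. It stood at 113 and 111 CPM in the control line, 127 and 144 with hairpin 1 and 165 and 141 with hairpin 2, with its highest library in hairpin 2. It was the single member not called in hairpin 1 (0.18 ± 0.09, adjusted p = 0.13, edgeR), while it rose in hairpin 2 (0.39 ± 0.09, adjusted p = 0.0257, edgeR). The other 4 genes of the central spindle and cytokinesis, among them Prc1, which bundles midzone microtubules, rose in hairpin 1, and of these Kif23, the motor of centralspindlin, did not pass in hairpin 2 (0.45 ± 0.15, adjusted p = 0.0801, edgeR).

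All 3 partners of the anaphase-promoting complex rose in both lines. Ube2c, its ubiquitin-conjugating enzyme, stood at 67.3 and 66.3 CPM in the control line, 96.0 and 132 with hairpin 1 and 110 and 95.8 with hairpin 2, and rose by 0.67 ± 0.13 and 0.56 ± 0.13 (adjusted p = 0.00601 and 0.0303, edgeR). Top2a, the topoisomerase that untangles sister chromatids, stood at 182 and 170 CPM in the control line, 247 and 333 with hairpin 1 and 282 and 244 with hairpin 2. Top2a rose by 0.62 ± 0.13 and 0.52 ± 0.13 (adjusted p = 0.00832 and 0.0385, edgeR), with both hairpin lines above the control line. Mki67, the proliferation antigen that coats mitotic chromosomes, rose in hairpin 1 (0.70 ± 0.13, adjusted p = 0.00467, edgeR) and had a value of 0.41 ± 0.13 in hairpin 2 (adjusted p = 0.076, edgeR).

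Over all 36 genes, 35 rose in hairpin 1, where 21.7% of the 15658 genes tested were called higher, and 29 rose in hairpin 2, where 8.42% were. The median log2 value was 0.69 in hairpin 1 and 0.52 in hairpin 2. In both lines 28 of the 36 were called higher. Of all genes at most 8.42% can have been, since that share rose in hairpin 2. The 2 comparisons share their control libraries. The count for hairpin 1 ran from 27 to 36 when each library was left out in turn, but that for hairpin 2 was 3 without control IgG, 1 without control anti-PD1 and 1 without hairpin 2 IgG. With both hairpins against the control line, 0 of 36 genes passed by edgeR (0% of all genes tested, adjusted p 0.118 to 0.26 for the 36), with a median of 0.62 against 0.01 over all genes. At an unadjusted p under 0.05 there were 35 of the 36, and DESeq2 called 32. The shares of all genes at these settings are not given here, so these counts have no background beside them. The fit of both hairpins together also treats the 2 libraries of a line as separate. The highest values in this comparison were those of Ccna2 (0.90 ± 0.20), Cenpe (0.86 ± 0.20) and the centromere histone Cenpa (0.79 ± 0.16), and the lowest those of Anln (0.29 ± 0.12), Tpx2 (0.38 ± 0.12) and Nusap1 (0.45 ± 0.12).

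**Figure D2:**
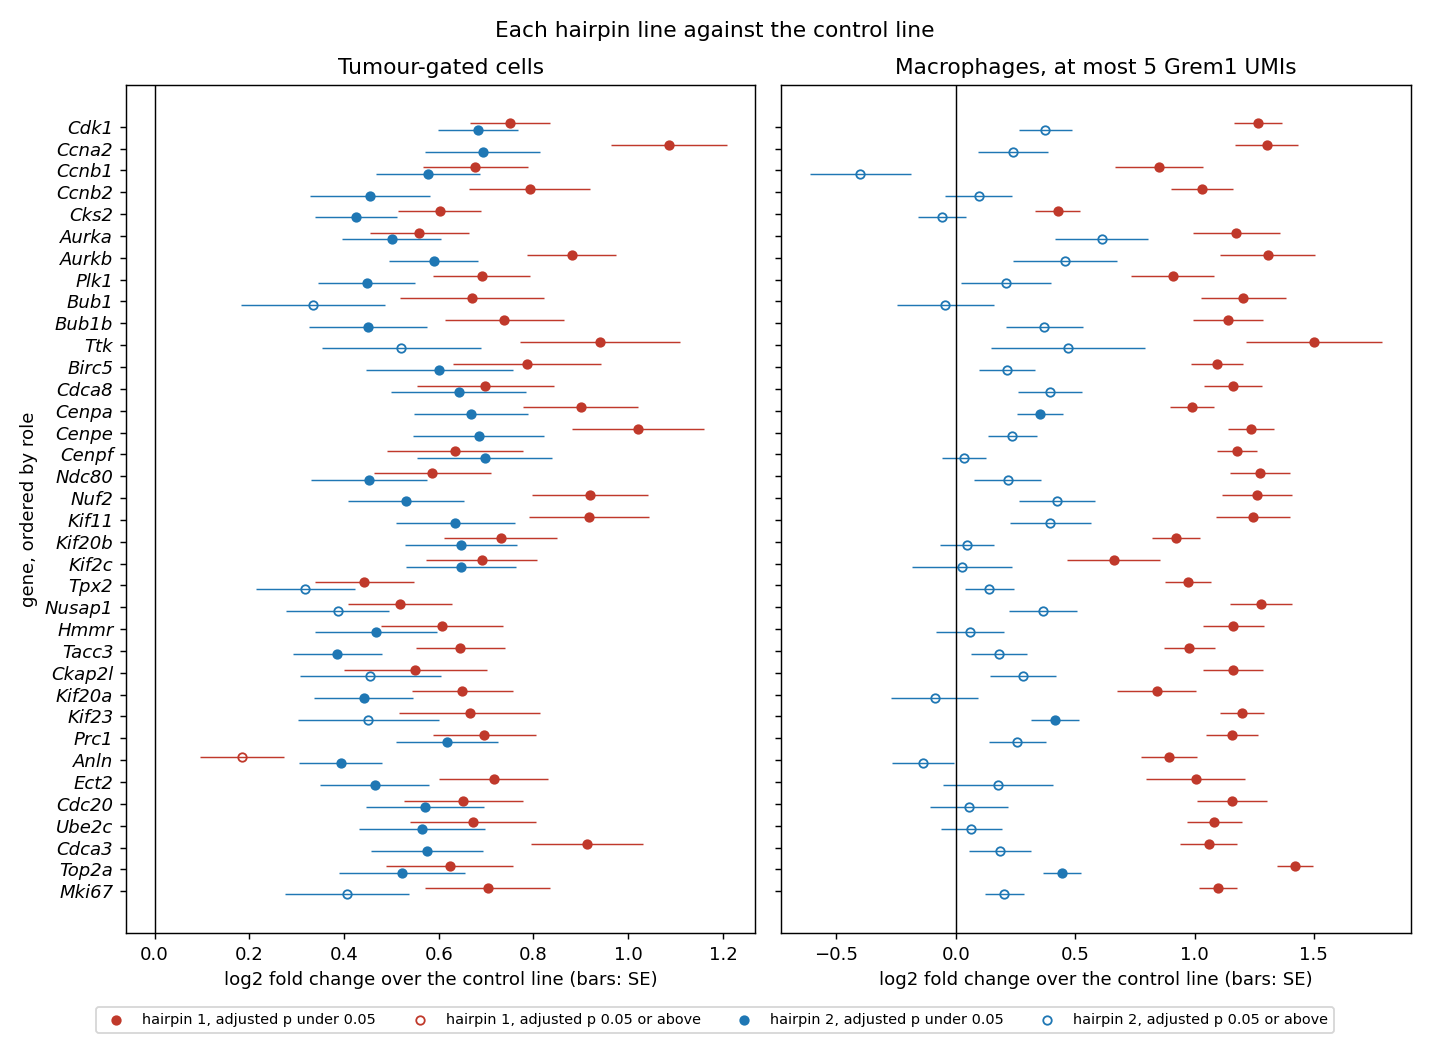
Log2 fold change of each gene over the control line (horizontal, bars are SE) for hairpin 1 (red) and hairpin 2 (blue), in tumour cells on the left and in macrophages with at most 5 Grem1 UMIs on the right, with filled points for an adjusted p under 0.05. The colours lie close together in tumour cells and apart in macrophages, where Top2a is at 1.42 in hairpin 1 and 0.44 in hairpin 2.

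The difference between the hairpin lines was tested directly. Of all genes in tumour cells 15.1% were called lower in hairpin 2 than in hairpin 1, against a smaller share of the mitosis and spindle genes, 3 of 36. These were Ccna2 (-0.39 ± 0.12, adjusted p = 0.0432), the kinetochore gene Nuf2 (-0.39 ± 0.12, adjusted p = 0.0458) and Aurkb, the Aurora kinase of the chromosomal passenger complex (-0.29 ± 0.09, adjusted p = 0.0476), all by edgeR. Ttk had the lowest value without passing (-0.42 ± 0.17, adjusted p = 0.0938, edgeR). Anln (0.21 ± 0.09, adjusted p = 0.113, edgeR) and Cenpf (0.06 ± 0.14) had values above 0, and the microtubule depolymerase Kif2c was next at -0.04 ± 0.11. The count of lower genes rested on single libraries: it was 30 without hairpin 1 IgG, 6 without hairpin 2 IgG, 0 without hairpin 1 anti-PD1 and 0 without hairpin 2 anti-PD1.

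For anti-PD1 against IgG, 0 of the 36 genes passed by edgeR in tumour cells (0% of genes), 0 had an unadjusted p under 0.05, DESeq2 called 0, and the values had a median of 0.05. The highest were those of Aurka (0.15 ± 0.10), Cks2 (0.14 ± 0.11) and Nuf2 (0.13 ± 0.18), and the lowest those of Anln (-0.03 ± 0.11), Ect2 (-0.03 ± 0.14) and Aurkb (-0.02 ± 0.14). With the line as a block 0 passed as well (0.00639% of genes), as for the interaction of genotype and antibody by edgeR and by DESeq2 (0 at an unadjusted p under 0.05 by each), where the median was 0.14 and values ran from -0.15 ± 0.33 for Cenpf, -0.03 ± 0.27 for Prc1 and -0.01 ± 0.28 for Anln to 0.28 ± 0.33 for Ckap2l, 0.28 ± 0.27 for Cdc20 and 0.32 ± 0.27 for Ndc80. Cdk1 was higher with anti-PD1 in hairpin 1 (153.6 to 179.2 CPM) and lower in hairpin 2 (163.2 to 147.1 CPM).

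The tumour cells themselves were then counted. To set libraries of different depth side by side, each cell was thinned at random to 3000 UMIs, and cells in which 8 or more of the 36 genes were detected were counted. Their share was 9.66% (95% exact binomial interval 8.79 to 10.6, which covers counting error only) in control with IgG and 9.12% (8.28 to 10.0) in control with anti-PD1. It was 15.1% (13.8 to 16.5) and 19.3% (17.9 to 20.8) in hairpin 1 and 16.8% (15.7 to 18) and 14.1% (13.1 to 15.2) in hairpin 2. All 4 knockdown libraries were above both controls, with means of 16.3% ± 2.27 (SD, n = 4 libraries of 2 lines) and 9.39% (n = 2 libraries of 1 line), a difference of 6.94 percentage points or 1.73-fold. An exact two-sided permutation test over the 6 libraries gave p = 0.133, the smallest it can give. It treats the 2 libraries of a line as separate, so it does not measure the spread among lines. Anti-PD1 minus IgG was 0.32 points ± 3.53 (SD, n = 3 lines), higher in 1 of 3 lines (exact sign-flip permutation p = 1, smallest possible 0.25). Without thinning the means were 16.5% and 26.8%.

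Chosen by these same genes, the cells with 8 or more of them are described next and not tested. They held 75.4% to 83.2% of the UMIs of the 36 genes per library, at 27.7 to 29.2 such UMIs per cell against 0.94 to 1.36 in the other tumour cells. They were also deeper before thinning, with medians of 13810 to 22735 UMIs against 9684 to 13792, and the part of depth in the differences between genes was not tested beyond thinning. Cells in which none of the 36 genes was detected made up 47.3% of both control libraries, 37.5% and 32.6% of hairpin 1 and 34.4% and 38.3% of hairpin 2. At the edge of the count, 28 cells had 7 genes and 24 had 8 in control with IgG, and 52 and 60 in hairpin 2 with IgG.

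For single genes the share of positive cells was separated from the level within them, at 3000 UMIs per cell. The log2 ratio of the share, knockdown over control, was above 0 for 36 of 36 genes, with a median of 0.63 and a range from 0.33 (Tpx2) to 0.92 (Ttk). The level per positive cell had a median log2 ratio of -0.01, with 14 of 36 above 0, from -0.10 (Mki67) to 0.17 (Cdk1). This level had a median of 1.38 UMIs over the 36 genes and a lowest value of 1.07 (Ttk), near the 1 UMI that makes a cell positive, so at this depth its ratio had little room to move. Cdk1 was detected in 13.3% and 12.9% of control cells, 19.9% and 23.4% in hairpin 1 and 19.9% and 18.1% in hairpin 2. Ttk was detected in 1.24% and 1.29% of control cells, 2.36% and 3.23% in hairpin 1 and 2.37% and 1.84% in hairpin 2. For both genes every knockdown library was above both controls.

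Within cells that had 8 or more of the other 35 genes, the level of a gene had a median log2 ratio of -0.06 between knockdown and control, with 11 of 36 above 0. Cdk1 stood at 1.35 and 1.42 UMIs per such cell in the control line, 1.61 and 1.62 in hairpin 1 and 1.62 and 1.71 in hairpin 2 (log2 ratio 0.24 ± 0.04, SD, n = 4). Plk1, the Polo-like kinase of mitotic entry and spindle assembly, stood at 0.415 and 0.400 in the control line, 0.334 and 0.310 with hairpin 1 and 0.268 and 0.305 with hairpin 2 (-0.43 ± 0.14, SD, n = 4). The knockdown libraries did not overlap the controls for either gene, and they differed in opposite directions. Tpx2 also stood lower in such cells, at 1.27 and 1.36 UMIs in the control line, 0.955 and 1.07 with hairpin 1 and 1.08 and 1.10 with hairpin 2. Anln followed it, at 1.80 and 1.75 UMIs in the control line, 1.35 and 1.22 with hairpin 1 and 1.72 and 1.58 with hairpin 2. Across the 36 genes, which share libraries and cells, the 2 log2 ratios had a Pearson correlation of 0.73, given as a description.

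**Figure D3:**
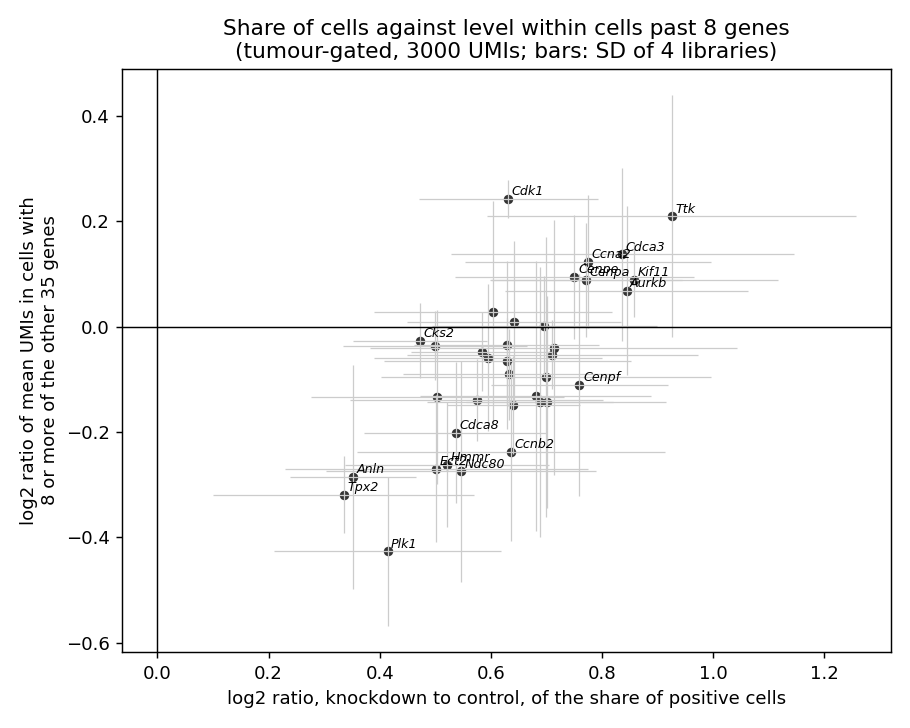
Each point is 1 of the 36 genes in tumour cells thinned to 3000 UMIs, with the log2 ratio (knockdown over control) of the share of positive cells on the horizontal axis and of the mean UMIs in cells with 8 or more of the other 35 genes on the vertical axis (bars are the SD of the 4 knockdown libraries). All points lie to the right of 0, and they spread on both sides of 0 vertically, from Plk1 at -0.43 to Cdk1 at 0.24.

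The genes differed in how closely they kept to these cells. From 55.7% (Cks2) to 93.2% (Nusap1) of a gene's UMIs lay in cells with 8 or more of the other 35, with a median of 82.1%. The mean level in those cells over that in cells with at most 1 of the others was 9.90-fold for Cks2 and 185-fold for Cenpf, the ends of the range. Across the 36 genes the knockdown value had a Pearson correlation of 0.17 with this percentage, given as a description.

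Host cells of the tumours were gated in the same libraries, with macrophages (9721) taken as cells with at least 3 UMIs of C1qa, C1qb and C1qc together. Of these, 233 cells (2.40%) had more than 5 UMIs of Grem1, a gene of the tumour gate, and they held 15.6% of the macrophages' UMIs of the 36 genes. Levels in macrophages are therefore given without them, and counts and tests both ways. Free or carried-over tumour RNA was not tested, and macrophages with at most 5 Grem1 UMIs still held 713 to 1879 CPM of the 3 tumour gate genes, lowest in hairpin 1 with IgG and highest in control with IgG (Spp1 is also a known macrophage gene). Summed over the 36 genes, these macrophages stood at 1150 and 1214 CPM in the control line, 2603 and 2624 with hairpin 1 and 1441 and 1381 with hairpin 2. With all macrophages kept, the sums were 1156 and 1439 CPM (control line), 2578 and 2646 (hairpin 1) and 1689 and 1563 (hairpin 2). The cut lowered sums for control anti-PD1 and hairpin 2, and moved the remaining libraries little. Hairpin 1 tumour cells carried less Grem1 (2105 and 1939 CPM) than control (4026 and 3881) or hairpin 2 cells (3573 and 3587). Whether the cut therefore worked unequally between lines was not tested.

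In macrophages with at most 5 Grem1 UMIs, each of the 36 genes was higher in both hairpin 1 libraries than in the other 4, a pattern shown by 15.9% of the 12634 genes that averaged 1 CPM or more. Top2a stood at 116 and 114 CPM in the control line, 325 and 299 with hairpin 1 and 168 and 151 with hairpin 2, so that the 3 lines did not overlap. It rose by 1.42 ± 0.08 in hairpin 1 (adjusted p = 1.06e-08, edgeR) and 0.44 ± 0.08 in hairpin 2 (adjusted p = 0.00215, edgeR). Cdk1 stood at 36.4 and 44.0 CPM in the control line, 100.0 and 97.3 with hairpin 1 and 55.9 and 51.4 with hairpin 2, with a rise of 1.27 ± 0.10 in hairpin 1 (adjusted p = 5.21e-07, edgeR) and a value of 0.38 ± 0.11 in hairpin 2 (adjusted p = 0.0531, edgeR). Ccnb1, a B-type cyclin, stood at 12.6 and 12.9 CPM in the control line, 26.3 and 20.5 with hairpin 1 and 9.07 and 10.5 with hairpin 2, where it lay below control (-0.40 ± 0.21, adjusted p = 0.334, edgeR). Cks2 had the smallest rise in hairpin 1 (0.43 ± 0.09, adjusted p = 0.00565, edgeR) and Ttk the largest (1.5 ± 0.28, adjusted p = 0.00187, edgeR).

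In hairpin 1, 34 of 36 genes rose in all macrophages (4.59% of genes tested were called higher) and 36 of 36 in those with at most 5 Grem1 UMIs (6.51% of genes). In hairpin 2, 2 rose, Kif23 and Top2a (1.69% of genes), or 3 with Cenpa in those with at most 5 Grem1 UMIs (2.99%), where none of the 36 was called lower (3.84% of genes). The count of 2 was 0 without control IgG or hairpin 2 IgG and 9 without control anti-PD1. Tested directly, 29 of 36 were lower in hairpin 2 than in hairpin 1 (3.92% of genes), or 36 of 36 in those with at most 5 Grem1 UMIs (6.56%), where Top2a differed by -0.98 ± 0.08 (adjusted p = 5.89e-07, edgeR). The count of 29 was 13 without hairpin 1 IgG, 14 without hairpin 1 anti-PD1 and 9 without hairpin 2 anti-PD1. Both hairpins together against control gave 0 of 36 by edgeR (0.103% of genes called) and 0 by DESeq2. At an unadjusted p under 0.05 there were 19, for which the share of all genes is not given here. Anti-PD1 gave 0 by edgeR (0% of genes), with 0 at an unadjusted p under 0.05 and 0 by DESeq2. Of the 36 genes, 20 had all 4 knockdown libraries above both controls in macrophages with at most 5 Grem1 UMIs (13.5% of genes that averaged 1 CPM or more), and 36 did in hairpin 1 taken alone (28.6%).

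The relative weight of the genes differed between macrophages and tumour cells. Each gene's UMIs were taken as a share of all UMIs of the 36 genes, library by library. Mki67 made up 4.33% of them in tumour cells and 12.8% in macrophages with at most 5 Grem1 UMIs, a log2 ratio of 1.57 ± 0.09 (SD, n = 6), higher in 6 of 6 libraries. Anln made up 6.36% in tumour cells and 2.07% in macrophages (-1.61 ± 0.25, SD, n = 6), lower in 6 of 6. In all, 12 genes were higher in macrophages in 6 of 6 libraries, among them the motor Kif11 (0.71), the passenger complex subunit Cdca8 (0.65) and Cenpf (0.65), and 12 were lower in 6 of 6, among them Ccnb1 (-0.90), Ube2c (-0.87) and the exchange factor of cytokinesis Ect2 (-0.82). Top2a had a like weight in both, at 11.3% and 11.1%.

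**Figure D4:**
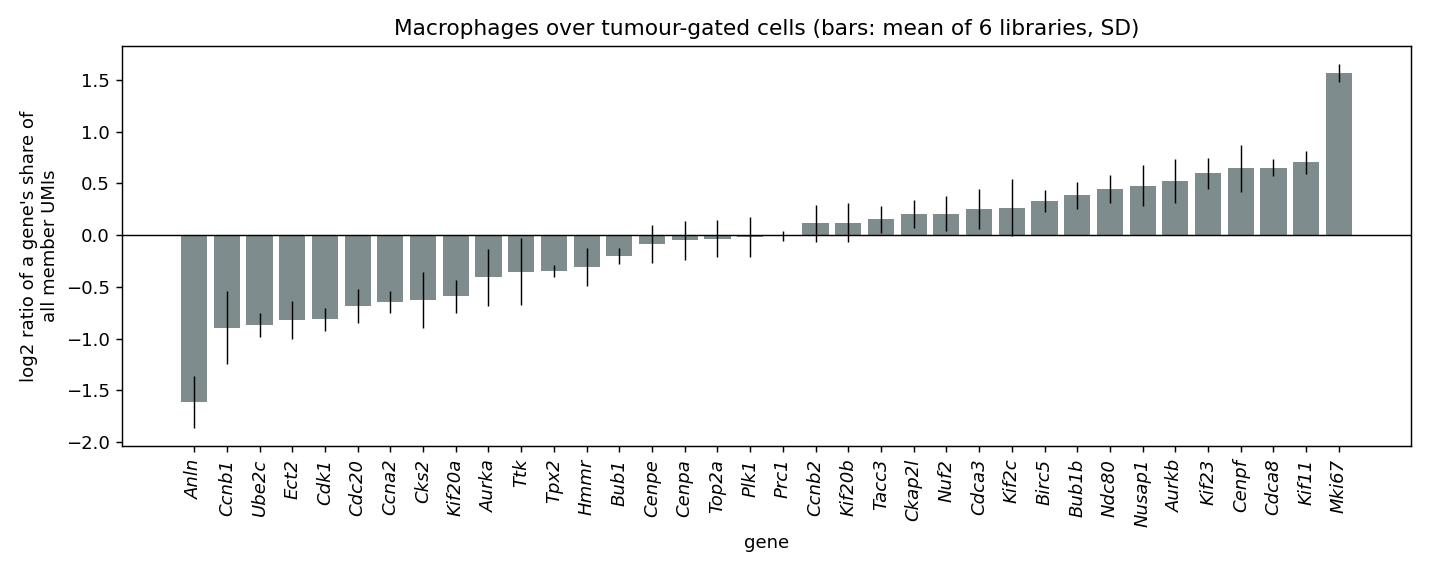
Log2 ratio, macrophages with at most 5 Grem1 UMIs over tumour cells, of each gene's share of all UMIs of the 36 genes (bars are the mean of 6 libraries, lines the SD). The genes run from Anln at -1.61 to Mki67 at 1.57, with 12 genes above 0 in 6 of 6 libraries and 12 below 0 in 6 of 6.

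To compare cell classes, each cell was thinned to 1500 UMIs and counted when 5 or more of the 36 genes were detected, and shallower cells were left out. The share of tumour cells was 9.36% and 8.94% in the control line, 14.6% and 18.9% with hairpin 1 and 16.1% and 13.6% with hairpin 2. The share of macrophages with at most 5 Grem1 UMIs was 4.94% and 5.27% in the control line, 12.7% and 14.3% with hairpin 1 and 7.33% and 6.70% with hairpin 2 (1930 shallower cells left out). The knockdown libraries were above control by 5.16 points there and by 5.30 points in all macrophages (exact permutation p = 0.133 for each, the smallest possible). This test again treats the libraries of a line as separate.

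Tumour cells were above all macrophages in 6 of 6 libraries, by 4.80 points ± 2.23 (SD; exact sign-flip permutation p = 0.03125, the smallest possible, and 0.125 adjusted over 4 classes). Above macrophages with at most 5 Grem1 UMIs they stood by 5.03 points ± 2.45 (6 of 6 libraries, adjusted p = 0.0625 by the same exact permutation test). With 8 or more genes required in place of 5, the difference from all macrophages was 2.55 points, and at 1000 UMIs per cell it was 3.63 points, each with 5 of 6 libraries and an exact permutation p of 0.0625. Unthinned it was 22.9 points. Cells with more than 5 Grem1 UMIs held 53.9% of the UMIs of the 36 genes in dendritic cells and 55.4% in lymphoid cells. The difference from dendritic cells was 6.79 points with them (5 of 6 libraries, adjusted p = 0.125) and 7.17 without (6 of 6 libraries, adjusted p = 0.0625), by the same exact permutation test. From lymphoid cells it was 0.64 points with them (4 of 6 libraries, adjusted p = 0.844, exact permutation) and 4.54 without (5 of 6 libraries, adjusted p = 0.167, exact permutation). From endothelial cells it was 1.85 and 1.31 points (5 of 6 libraries in each, adjusted p = 0.844 and 0.813, exact permutation). Lymphoid cells numbered as few as 5 in a library.

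Neutrophils gave the lowest share. With cells of more than 5 Grem1 UMIs left out, 1 of 199 neutrophils had 5 or more genes. This share was 0.503% (95% exact binomial interval 0.0127 to 2.77), against 8.51% of macrophages treated in the same way. Cells too shallow to thin were not counted, 519 neutrophils and 1930 macrophages. With those shallow cells included, the median depth was 1130 UMIs in neutrophils and 2913 in macrophages. Mature neutrophils do not divide, and the 0.503% is given as the background of such counts, for the deeper neutrophils only. Over all neutrophils with at most 5 Grem1 UMIs, the summed level of the 36 genes was not near 0, at 410 and 448 CPM in the control line. It was 727 and 1751 CPM with hairpin 1, from 20 and 48 neutrophils, and 482 and 488 with hairpin 2. The source of this RNA, and its part in the levels of other host cells, was not tested.

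Endothelial cells (324, 24 to 79 per library) spread more widely than the other classes. The share with 5 or more genes was 0 of 38 cells in control with IgG, which allows up to 7.89% by 3 counts of the total (the exact 95% interval reaches 9.25%), 5.26% in control with anti-PD1, 31.8% and 18.4% in hairpin 1, and 5.17% and 9.72% in hairpin 2. Hairpin 1 was highest, and hairpin 2 with IgG overlapped the control. The knockdown libraries had a mean of 16.3% against 2.63% in the control libraries (exact permutation p = 0.267 over the 6 libraries). The hairpin 1 library with IgG also stood apart in other measures of this gate. It held 533 CPM of 4 fibroblast and pericyte markers, against 9.82 to 71.8 in the other 5 libraries, with none of the 4 at 0 throughout. Its level of the 3 tumour gate genes was 2737 CPM, against 140 to 229, and its cells had a mean of 11097.5 UMIs, against 4433 to 5830. Without its 2 cells of more than 5 Grem1 UMIs the tumour gate genes were at 84.4 CPM, the fibroblast and pericyte markers at 685 CPM and the share at 35%. The part of these markers and of depth in the share was not tested. Top2a gave 0 and 47.8 CPM in the control line, 604 and 239 with hairpin 1 and 120 and 105 with hairpin 2, from 0 to 161 UMIs per library. Of the 36 genes 25 passed the filter on low counts, and 0 of them passed the test for knockdown by edgeR (0% of genes) and 0 by DESeq2. There were 24 at an unadjusted p under 0.05, a count that is not read as a result. The 36 genes summed to 133 CPM in control with IgG and 4310 in hairpin 1 with IgG. A gene can thus pass the filter through the libraries where it is high, and the share of all genes is not given here.

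**Figure D5:**
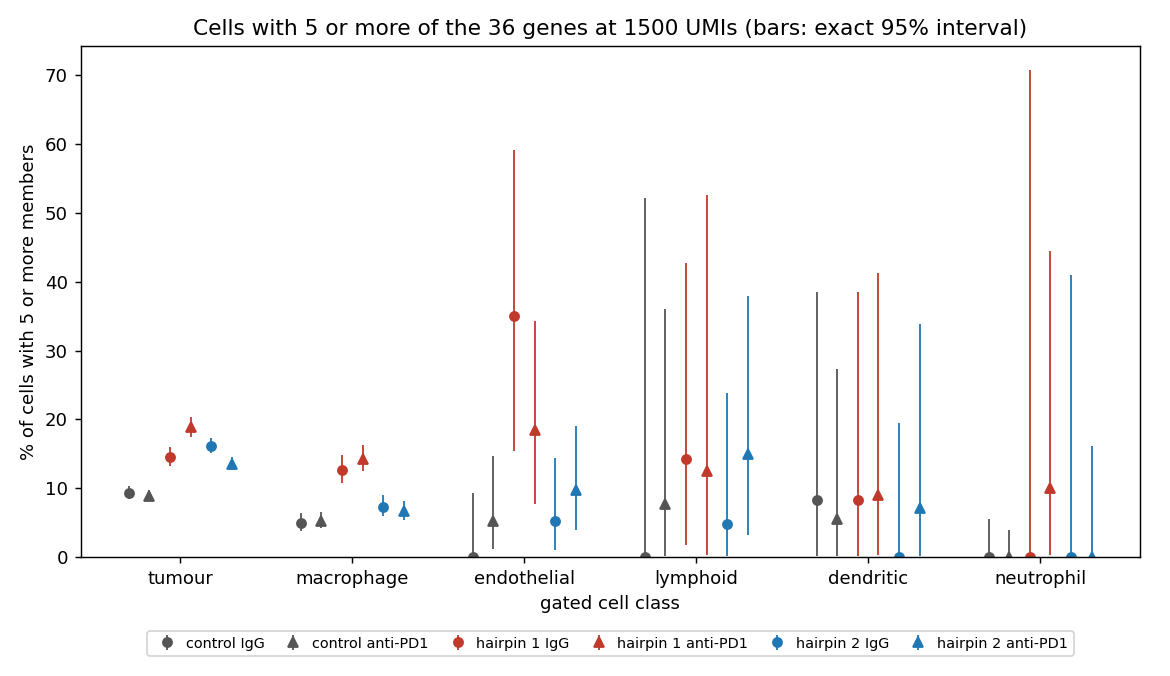
Percent of cells with 5 or more of the 36 genes after thinning to 1500 UMIs, by cell class and library (points, bars are exact 95% binomial intervals), with cells of more than 5 Grem1 UMIs left out of the host classes. Tumour cells and macrophages show narrow intervals with knockdown libraries above control, while the other classes show wide intervals that mostly overlap. Among endothelial cells the interval of hairpin 1 with IgG (15.4 to 59.2) lies above those of both control libraries (upper ends 9.25 and 14.6). The intervals cover the counting error of cells only, not the spread among libraries or lines, and that library had 20 such cells.

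Other cell cycle genes, from lists drawn up with earlier results known, were counted in tumour cells for comparison. Among all genes tested, the share that rose was 21.7% with hairpin 1 and 8.42% with hairpin 2, and the share that fell was 21.7% and 8.17%. Of 49 other kinetochore, motor and condensin genes, 38 rose and 1 fell in hairpin 1, and 19 rose and 0 fell in hairpin 2, with the condensin subunit Ncapd2 at 1.07 ± 0.13 and 0.60 ± 0.13, the separase Espl1 at 0.94 ± 0.09 and 0.46 ± 0.09, and Fbxo5, an inhibitor of the anaphase-promoting complex, at 0.69 ± 0.09 in hairpin 2. Of 37 genes of DNA replication, 30 rose in hairpin 1 and 20 in hairpin 2 with none lower, among them the helicase subunit Mcm5 (1.18 ± 0.08 and 0.59 ± 0.08) and the primase Prim1 (1.17 ± 0.12 and 0.72 ± 0.12). Of 21 regulators of mitotic entry and transcription, 13 rose and 2 fell in hairpin 1 and 7 rose in hairpin 2, with Cks1b at 0.76 ± 0.09 and 0.42 ± 0.09 and the phosphatase Cdc25a at 0.46 ± 0.07 and 0.47 ± 0.07. Of 15 subunits and activators of the anaphase-promoting complex, 5 rose in hairpin 1, with the activator Fzr1 at 0.54 ± 0.07 and Cdc23 at 0.36 ± 0.07. In hairpin 2, 3 rose and 1 fell, with Anapc15 at 0.36 ± 0.07 and Anapc4 at -0.42 ± 0.05.

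Of 16 CDK inhibitors and growth arrest genes, 3 rose and 5 fell in hairpin 1, and 1 rose and 8 fell in hairpin 2, with medians of -0.12 and -0.33. Of all genes tested, 21.7% rose and 21.7% fell in hairpin 1, and 8.42% rose and 8.17% fell in hairpin 2. Cdkn1a, which encodes the inhibitor p21, fell by 1.39 on the log2 scale in hairpin 1 and by 0.49 in hairpin 2 (adjusted p = 3.36e-05 and 0.00685, edgeR), while Cdkn1b rose in hairpin 1 (0.64 ± 0.09, adjusted p = 0.00138, edgeR). Cdkn2a, the gene targeted in all lines and part of the tumour gate, was not level across the tumour cells. It stood at 324 and 349 CPM in the control line, 216 and 229 with hairpin 1 and 282 and 326 with hairpin 2. Both hairpin 1 libraries were lowest, and hairpin 2 overlapped the control line. The part of Cdkn2a in the levels of the mitosis and spindle genes was not tested. The largest falls of hairpin 2 were those of Ccng2 (-0.60 ± 0.11) and the stress gene Gadd45a (-0.52 ± 0.13). Of 7 D cyclins and partners, 3 rose and 3 fell in hairpin 1 and 2 rose in hairpin 2, with Ccnd1 at -0.41 ± 0.07 and Cdk4 at 0.38 ± 0.06 in hairpin 1, and Cdk2 at 0.32 ± 0.06 and Cdk4 at 0.27 ± 0.06 in hairpin 2. For knockdown as a whole, 0 genes of any of these lists passed by edgeR, as for all genes.

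Levels of markers of other cells differed between the lines in the tumour gate and are given beside these results. The summed level of 5 neutrophil markers was 67.2 and 54.9 CPM in the control line, 11 and 7.96 with hairpin 1 and 19.5 and 29.8 with hairpin 2, against 11.6 to 16 CPM for 6 macrophage markers, with none of either list at 0. Grem1 ran from 1939 CPM in hairpin 1 with anti-PD1 to 4026 in control with IgG. Their part in the levels of the 36 genes was not tested.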

How the data were processed

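The 6 single-cell libraries fall in 4 groups. Cell Ranger 7.0.1 and the build mm10 are named per the submitters' processing notes. The authors deposited matrices of raw UMI counts, 1 per gene and cell. Cells were gated on marker UMIs and counts were summed per library and class. Sums were tested with edgeR 4.0.16 (quasi-likelihood, R 4.3.3) on all genes passing its filter on low counts, with genotype and antibody, their interaction, or line and antibody as terms, and DESeq2 1.42.0 as an alternative. Doublets were called with Scrublet at an expected rate of 0.06. Scripts were tested on simulated data. Libraries of a hairpin number come from the same cell line, so lines pair IgG and anti-PD1, and deviations of paired libraries correlated at 0.694 in tumour and 0.476 in macrophage sums. The members and lists were chosen with earlier results of these data known. Genes are named as the leader of each role by mean CPM, the 3 highest and 3 lowest in each tumour contrast, members against the rest, and the 2 largest changes of each related list above 20 CPM. Kif11 and Mki67 in tumour cells, Plk1 by its level within cells past 8 genes, and Cks2, Ttk, Ccnb1 and Kif23 in macrophages were named after their values were seen.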

Additional observations from a re-analysis of the deposited data

Results flagged for a closer look

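Results are listed here when the 2 hairpin lines differed by a test of their difference, or when a signal appeared in cells that no comparison used. In tumour cells 3 of the 36 genes differed between the hairpin lines by edgeR's quasi-likelihood test, all lower in hairpin 2: Aurkb (-0.29), Ccna2 (-0.39) and Nuf2 (-0.39). This is a smaller share than that of all genes. Over all genes 15.1% were called lower, and the count of 3 was 0 without hairpin 1 anti-PD1 or without hairpin 2 anti-PD1. In all macrophages 29 of the 36 genes were lower in hairpin 2 than in hairpin 1, against 3.92% of all genes, and the count ran from 9 to 32 when each library was left out in turn. Among them were Top2a (-0.73), Cenpe (-0.76), Ube2c (-0.64), Cdk1 (-0.59), Tpx2 (-0.55) and Anln (-0.51). The share of macrophages with 5 or more of the genes after thinning was likewise higher in both hairpin 1 libraries than in both of hairpin 2.

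Cells that fell in no gate (8458) entered no comparison. After thinning to 1500 UMIs, the share of them with 5 or more of the 36 genes was 13.6% and 12.0% in hairpin 1 with IgG and anti-PD1, and 8.89% and 8.37% in hairpin 2, above the 7.41% and 6.32% of the control libraries. What these cells are was not determined.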

How the results depend on the processing

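Of 105 alternatives, 88 kept the direction and side of the threshold (counts within 1.5 times, values within 1 SD). Another 12 moved, among them counts of genes that went from 0 to above 0. A further 4, all differences of share between cell classes without thinning, passed where the main analysis did not, and 1 reversed. In tumour cells, knockdown against control gave 32 genes with DESeq2 and 1 with no filter on low counts (0 in the main analysis), and hairpin 2 against hairpin 1 gave 10 with no filter (3). In macrophages, knockdown gave 28 with no filter (0), hairpin 2 gave 1 with DESeq2, 7 with no filter, 6 with doublets kept and 0 with at least 2 Tyrobp UMIs (2), and hairpin 2 against hairpin 1 gave 14 with DESeq2 and 19 with at least 2 Tyrobp UMIs (29). In endothelial cells knockdown gave 18 with no filter (0). Without thinning, the share of tumour cells past 8 genes differed by 10.3 points (6.94), and tumour cells exceeded macrophages by 22.9, lymphoid cells by 24.6, dendritic cells by 23.2 and endothelial cells by 18.9 points. With 8 or more genes required, the excess over macrophages was 2.55 points (4.80). At 3000 UMIs the difference from lymphoid cells reversed to -6.17 points, with 33 lymphoid cells kept and 121 left out. The shares of all genes called under these alternatives are not given here, and the causes were not tested. Thinning gives each counted cell the same number of UMIs. It leaves out shallower cells and does not undo the gate of 3000 UMIs on tumour cells. The replicate block (line as a block) left anti-PD1 at 0 genes in tumour cells and macrophages and changed no other call.

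Leaving out 1 library at a time gave 27 to 36 genes for hairpin 1 in tumour cells, 1 to 36 for hairpin 2 and 0 to 30 for their difference. In macrophages it gave 25 to 35, 0 to 9 and 9 to 32. Knockdown, anti-PD1 and their interaction stayed at 0 in both classes, and so did endothelial cells. The tumour share differed by 5.96 to 7.68 points for knockdown and -1.62 to 1.83 for anti-PD1. Tumour cells minus macrophages gave 4.10 to 5.37, minus lymphoid cells -1.10 to 2.73, minus dendritic cells 4.91 to 8.26 and minus endothelial cells 0.0212 to 5.66. With 1 control line, 2 libraries per line and few lymphoid, dendritic and endothelial cells, differences between lines could not be told apart from differences of genotype, and small shares were not detectable at this depth.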

Other observations

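The related lists in macrophages with at most 5 Grem1 UMIs were counted in the same fits. In hairpin 1, 36 of 49 other kinetochore, motor and condensin genes, 30 of 37 DNA replication genes and 13 of 21 regulators of mitotic entry rose by edgeR's quasi-likelihood test, with none lower, where 6.51% of all genes were called higher. In hairpin 2 the counts were 5, 8 and 0, against 2.99% of all genes. Of 16 CDK inhibitors and growth arrest genes, 3 rose in hairpin 1, and 1 rose and 2 fell in hairpin 2, where 3.84% of all genes were called lower. Tested directly, 30 of the 49 genes, 16 of the 37 and 10 of the 21 were lower in hairpin 2 than in hairpin 1, against 6.56% of all genes.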
